A study of Mus musculus with 2 samples.

Results

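Myelin genes, 9 in all, were followed through 2 single-cell RNA-seq libraries of mouse brain: Mbp, Mog, Mag, Mobp, Cnp, Mal, Opalin, Ermn and Cldn11. They were chosen by name, as rows whose gene symbol was on that list, out of the 32285 genes listed alike in both libraries. They were measured first in oligodendrocytes and then in every other class of cells that its own markers defined, and in barcodes too low in UMIs to count as cells. A UMI is the tag of 1 captured RNA molecule, and a barcode is the tag of 1 droplet. The cKO host was Cx3cr1 CreER/+ Plxnb2 fl/fl, and the control host was Cx3cr1 CreER/+ Plxnb2 fl/+. The control title reads WT, but its genotype holds 1 floxed allele. Both hosts were C57BL/6 mice that carried an intracranial graft of KR158, a mouse glioblastoma line. Both were given tamoxifen at 100 mg/kg every other day, beginning 3 days ahead of the graft. The harvest was at 8 weeks in both. The Cre recombinase was expressed from the Cx3cr1 locus, which is active in microglia and other myeloid cells and not in oligodendrocytes. Tissue within about 1 mm in front of and behind the graft site was digested with papain, cleared of debris on Percoll, freed of red blood cells and loaded on 10x Genomics 3′ chips. The sources used here give neither the age nor the sex of the hosts. There was 1 library per genotype, so no difference between them has a replicate check, no test was possible, and what belongs to the genotype, the animal or the library cannot be told apart. Every interval below is a 95% interval for counting error only.

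Oligodendrocytes wrap axons of the central nervous system in myelin, many layers of their own cell membrane pressed together. The membrane layers are held together inside by small basic proteins, sealed at their edges by claudin strands, and joined to the axon by adhesion molecules. The mRNAs of Mbp and Mobp are known to be carried out of the cell body into the processes that form myelin and to be translated there, whereas most membrane proteins of myelin are made near the nucleus.

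The 9 genes lie on 8 chromosomes and have different places in the myelin sheath (coordinates are mm10, from GENCODE vM21). Mbp (chromosome 18, 82475146 to 82585637) encodes a basic protein that presses the inner membrane faces together, and Mobp (chromosome 9, 120149707 to 120181484) a smaller basic protein of compact myelin. Cnp (chromosome 11, 100574904 to 100591729) encodes the enzyme CNPase, which keeps channels of cytoplasm open in the sheath. Mal (chromosome 2, 127633226 to 127656695) encodes a membrane proteolipid that sorts proteins and lipids to the cell surface, in myelin and in several epithelia. Mag (chromosome 7, 30899176 to 30914873) encodes an adhesion molecule on the innermost wrap, facing the axon, and Mog (chromosome 17, 37010743 to 37023398) an immunoglobulin-type protein on the outermost surface. Opalin (chromosome 19, 41061710 to 41077113) encodes a membrane glycoprotein of oligodendrocytes. Ermn (chromosome 2, 58045113 to 58052864) encodes ermin, which binds actin in late myelination. Cldn11 (chromosome 3, 31149920 to 31164324) encodes the claudin of the tight junctions between myelin layers.

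Filtering kept 5210 cKO and 7648 control cells, each with at least 1000 UMIs, 500 genes and at most 10% mitochondrial UMIs, with median depths of 5919 and 4625.5 UMIs. The deposited matrices held 63785513 UMIs for cKO and 64756949 for control. The control matrix held no barcode under 500 UMIs, so only the cKO matrix shows the low barcodes. Plxnb2, the floxed gene, stood at 38.5 CPM in cKO microglia and at 200.6 CPM in control microglia, where CPM is UMIs of the gene per 1000000 UMIs of the summed cells, not divided by gene length since 3′ UMIs count molecules. In oligodendrocytes it stood at 4.27 CPM in cKO and 6.42 CPM in control. Kept cells of the libraries shared 8 barcodes.

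Start-site windows, each 250 bases before to 50 after an annotated start (RefSeq, GRCm38.p6), were matched for 8 of the 9 genes. They are printed for Mobp, whose window is the densest in one motif, and for Mal and Cnp, the members that stood apart in endothelial and in ependymal cells. Lines run 5′ to 3′ on the gene's strand, with ACAAAG or ACAATG (the core read by Sox10 and its relatives) and CTGGNAC (read by Myrf) in capitals on either strand, none overlapping.
Mobp: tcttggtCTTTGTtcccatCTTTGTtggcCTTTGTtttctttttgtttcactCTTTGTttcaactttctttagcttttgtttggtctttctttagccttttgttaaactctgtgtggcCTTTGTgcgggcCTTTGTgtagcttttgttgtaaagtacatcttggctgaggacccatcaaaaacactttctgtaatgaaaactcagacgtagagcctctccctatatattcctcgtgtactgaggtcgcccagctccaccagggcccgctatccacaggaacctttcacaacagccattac
Mal: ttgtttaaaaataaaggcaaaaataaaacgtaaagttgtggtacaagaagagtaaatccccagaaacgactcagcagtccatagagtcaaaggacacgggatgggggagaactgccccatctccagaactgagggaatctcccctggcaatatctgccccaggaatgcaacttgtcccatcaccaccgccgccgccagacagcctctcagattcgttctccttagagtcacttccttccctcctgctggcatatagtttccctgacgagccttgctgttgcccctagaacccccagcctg
Cnp: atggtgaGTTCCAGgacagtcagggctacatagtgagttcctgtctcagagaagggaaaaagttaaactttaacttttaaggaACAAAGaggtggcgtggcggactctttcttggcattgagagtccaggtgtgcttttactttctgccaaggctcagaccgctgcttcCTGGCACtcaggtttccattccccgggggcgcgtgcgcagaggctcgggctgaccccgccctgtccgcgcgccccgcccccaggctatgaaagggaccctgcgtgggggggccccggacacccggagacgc
The Mobp window (chr9:120149492-120149791, plus strand) held 6 Sox-type matches and no Myrf-type match. Of 32851 windows of all genes it was the 1 with 6 or more, 0.137% held 4 or more, and 28.6% held any. The Mal window (chr2:127656646-127656945, minus strand) held neither motif. The Cnp window (chr11:100574689-100574988, plus strand) held 1 Sox-type and 2 Myrf-type matches. Over the 8 members with a window, 5 had a Sox-type match and 4 a Myrf-type match, which 19.3% of all windows held. These are matches of letters, not binding sites.

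Oligodendrocytes numbered 561 cKO and 937 control cells, in clusters found and named without the 9 genes, and all 14 of their marker genes were at 50 CPM or more in each library. All 9 myelin genes were high in them and close between the genotypes. Together they made up 29109 CPM in cKO and 26129.7 CPM in control oligodendrocytes. In the median cell they were 2.84% of UMIs in cKO (interquartile range 2.53% to 3.17%) and 2.55% in control (2.25% to 2.87%).

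Mbp stood at 5083 CPM in cKO and 5213 CPM in control oligodendrocytes, a log2 ratio of cKO over control of -0.04 (-0.06 to -0.01). Mobp stood at 2757 CPM in cKO and 2211 CPM in control, a log2 ratio of 0.32 (0.28 to 0.35). Of these compact-myelin genes the second was thus somewhat higher in the cKO library and the first almost level. Cnp was measured at 4254 CPM in cKO and 3828 CPM in control (log2 0.15). Mal, the member with the most UMIs, was measured at 8607 CPM in cKO and 7180.05 CPM in control (log2 0.26, 0.24 to 0.28). Both were higher in cKO by less than 1.5-fold.

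For the axon-facing adhesion gene Mag the levels were 2046 CPM in cKO and 2108 CPM in control (log2 -0.04). For the surface gene Mog they were 1303 CPM in cKO and 1137 CPM in control (log2 0.20, 0.15 to 0.25). Contact and surface genes therefore lay on opposite sides of equality, both close to it. Opalin was counted at 1258 CPM in cKO and 1263 CPM in control (log2 -0.01, -0.05 to 0.04), the only member whose interval held equality. Ermn was counted at 2054 CPM in cKO and 1819 CPM in control (log2 0.18). Cldn11, the tight-junction gene, showed the highest ratio of the 9, with 1747 CPM in cKO and 1371 CPM in control (log2 0.35, 0.31 to 0.39).

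None of the 9 passed 1.5-fold with an interval that excluded equality, against 0.304% of the 3292 genes measured in oligodendrocytes that did so upward and 0.79% downward. A gene counted as measured at 50 CPM and 30 UMIs or more in at least 1 library. The median log2 ratio of the 9 was 0.18 and that of all measured genes 0.03. At these UMI counts even small ratios had intervals that excluded equality, as for Mbp at a log2 ratio of -0.04. Variation between animals is not in those intervals. Dissociation recovers cell bodies and not the whole sheath, so these are levels in recovered cells.

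**Figure D1:**
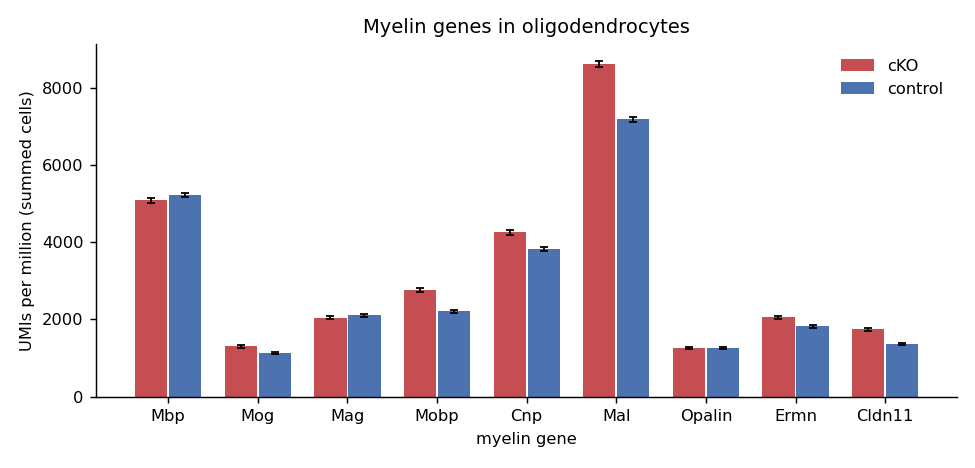
Level of each myelin gene in oligodendrocytes, in CPM of the summed cells, for the cKO library (561 cells, left bar) and the control library (937 cells, right bar). Error bars are 95% Poisson intervals for counting error. Mal is the tallest pair (8607 in cKO, 7180.05 in control), and no pair differs by 1.5-fold.

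Single oligodendrocytes nearly all carried the whole set. All 9 genes were detected in 93.9% of cKO and 90.3% of control oligodendrocytes. No oligodendrocyte lacked Mbp or Mal. Opalin was the member most often at 0, in 29 of 561 cKO and 56 of 937 control cells. At an equal depth of 1000 UMIs per cell, 21.9% of cKO and 18.8% of control oligodendrocytes kept a UMI of all 9. Across cells at that depth the 36 pairs of members had Pearson r from -0.13 to 0.15 in 561 cKO cells and from -0.09 to 0.19 in 937 control cells. In counts this sparse a weak correlation is no finding.

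The members were not uniform between the 2 oligodendrocyte clusters. Cluster 2 held 545 cKO and 823 control cells and was led by Ninj2, Cryab and Hapln2. Cluster 21 held 16 cKO and 114 control cells and was led by Slc24a2, Spock3, Cntn2 and Hhip. Cldn11 was higher in cluster 21 than in cluster 2, at 3048 against 1721 CPM in cKO and 2075 against 1298 CPM in control. Mag was also higher there, at 2709 against 2033 CPM in cKO and 2620.01 against 2054.5 CPM in control. So the genes of the tight junction and of the axon contact were the high members of the smaller cluster, in both libraries.

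Ermn was lower in cluster 21, at 1061 against 2073 CPM in cKO and 994 against 1905 CPM in control. Cnp was lower there as well, at 2766 against 4283 CPM in cKO and 2003 against 4018 CPM in control. Opalin was likewise lower there, at 903 against 1264 CPM in cKO and 702 against 1321 CPM in control. The log2 ratio of cluster 21 over cluster 2 ran from -0.97 for Ermn to 0.82 for Cldn11 in cKO and from -1.0 for Cnp to 0.68 for Cldn11 in control. Cluster 21 cells had a higher median mitochondrial share, 7.88% against 5.14% in cKO and 6.98% against 5.42% in control, and fewer UMIs, 5314 against 7674 in cKO and 4981 against 6633 in control. The part of these in the difference was not tested. Since the cluster held more of the control than of the cKO oligodendrocytes, the ratios between genotypes were also taken without it. The median log2 ratio of the 9 was then 0.12.

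Other genes of oligodendrocytes were also close between genotypes. Of genes for myelin lipid synthesis, 0 of 7 measured passed 1.5-fold, where 0.304% of all measured genes did so upward and 0.79% downward. Aspa, which splits N-acetylaspartate, had a log2 ratio of 0.28, and Ugt8a, which makes galactosylceramide, one of -0.24. Of transcription factors, 0 of 8 passed, with Olig1 at 0.29 and Myrf, a regulator needed for myelin genes, at -0.30. Of genes for gap junctions and axon contact, 0 of 9 passed, with Nfasc, an adhesion gene of the node region, at -0.33. Of other oligodendrocyte proteins, 1 of 23 passed upward, against that 0.304%: Tppp3, a tubulin-binding protein, at 342 CPM in cKO and 212 CPM in control (log2 0.69, 0.59 to 0.79). Of genes reported to rise in oligodendrocytes in disease, 1 of 9 passed upward, against the same 0.304%: H2-D1, an MHC class I chain, at 105 CPM in cKO and 53.5 CPM in control (log2 0.97, 0.77 to 1.18). Sgk1 in that list had a log2 ratio of 0.48. Of precursor and early genes, 3 of 12 were measured and 0 passed, and no cluster passed the naming rule as precursor cells.

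Outside oligodendrocytes each of the 9 genes was detected in every class described here, at a low level. A class was described with at least 50 cells in a library, which gave 8 classes beside oligodendrocytes in cKO and 9 in control, since 4 choroid plexus cells were kept in cKO against 352 in control. Summed over the 9, microglia held 375 CPM in cKO and 456 CPM in control, which is 1.29% and 1.74% of the level in oligodendrocytes of the same library. Astrocytes held 1.17% in cKO and 1.37% in control, ependymal cells 1.25% in each, and neuroblasts 1.12% in cKO and 1.57% in control. T cells held 1.69% in cKO and 1.88% in control, and border macrophages 1.31% in cKO and 2.14% in control. Choroid plexus cells of the control library held the least, 0.869%. Endothelial cells held the most, 3.57% in cKO and 3.56% in control.

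Many of these classes could not be put in order by counting error. In cKO the summed levels of border macrophages (382 CPM, 323 to 449), microglia (375 CPM, 356 to 394), ependymal cells (364 CPM, 342 to 388) and neuroblasts (325 CPM, 295 to 357) had overlapping neighbours. In control the same held of border macrophages (559 CPM, 500.4 to 622), T cells (491 CPM, 416 to 575) and microglia (456 CPM, 438 to 474), and of astrocytes (359 CPM, 347 to 371), pericytes or smooth muscle cells (344 CPM, 301 to 392) and ependymal cells (327 CPM, 312 to 343). The gap from every one of them to oligodendrocytes was far larger than these intervals.

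Microglia, which are not known to make myelin, held UMIs of all 9 genes. Mbp stood at 145 CPM in cKO and 147 CPM in control microglia, 2.85% and 2.82% of its oligodendrocyte level. Mag stood at 48.7 CPM in cKO and 50.7 CPM in control, 2.38% and 2.40%. Mog stood at 4.50 CPM in cKO and 11.9 CPM in control, 0.345% and 1.04%. The members thus did not keep the proportions they have in oligodendrocytes: Mbp and Mag were the high ones relative to that level in both libraries. Ermn, at 6.50 CPM in cKO and 15.3 CPM in control, was the lowest in each, at 0.316% and 0.84%.

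A member UMI was found in 80.9% of cKO microglia (77.4% to 84.1%) and 79.2% of control microglia (76.9% to 81.4%). Microglia were deeper in cKO, with a median of 6095 UMIs against 3945.5 in control. At 1000 UMIs per cell the expected share was 28.2% in cKO (24.6% to 32.1%) and 35.3% in control (32.7% to 37.9%), against 100% of oligodendrocytes in each library. So most microglia carried 1 or a few such UMIs, and the median cell held 2 in cKO and 1 in control. A few held many: 15 cKO microglia with 10 or more carried 24.4% of the class's member UMIs, and 16 control microglia carried 10.9%. Of the 14 oligodendrocyte markers, 0 reached 50 CPM in microglia and 0 were absent, and their sum was 0.839% of the oligodendrocyte level in cKO and 1.55% in control.

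**Figure D2:**
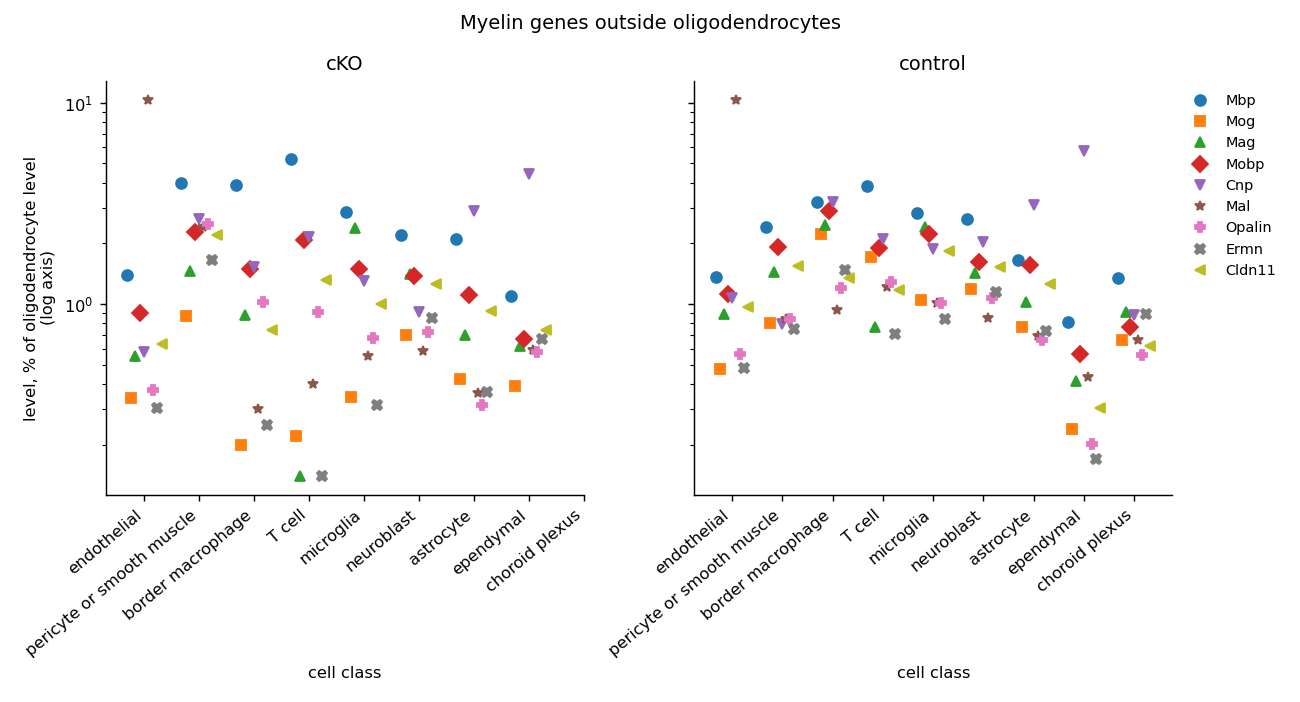
Level of each myelin gene in other cell classes as a percentage of its level in oligodendrocytes of the same library (log axis), cKO at left and control at right. Choroid plexus is missing at left, where 4 cells were kept. Most points lie below 5%. Mal in endothelial cells (10.2% in cKO, 10.3% in control) and Cnp in ependymal cells (4.40% in cKO, 5.74% in control) stand above the other members of their class. Cnp is the highest member in astrocytes too (2.90% in cKO, 3.10% in control). Mbp is the highest member in T cells (5.25% in cKO, 3.84% in control). It is so too in border macrophages, pericytes or smooth muscle cells, neuroblasts and microglia of both libraries, and in control choroid plexus cells.

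Mal stood apart in endothelial cells, the lining of brain vessels. It was at 882 CPM in 884 cKO cells and at 741 CPM in 691 control cells, which is 10.2% and 10.3% of its oligodendrocyte level. The other 8 members lay between 0.306% and 1.39% of theirs in cKO endothelial cells and between 0.476% and 1.35% in control. Mal was 84.8% of the member UMIs in cKO endothelial cells and 79.6% in control, against 29.6% in cKO and 27.5% in control oligodendrocytes. At 1000 UMIs per cell, 50.3% of cKO (46.9% to 53.6%) and 46.7% of control endothelial cells (43.0% to 50.5%) held a Mal UMI, where microglia gave 4.64% in cKO and 7.0% in control. Unthinned, the shares were 92.9% of cKO and 89.0% of control endothelial cells, at median depths of 7218.5 and 5973 UMIs.

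All 3 endothelial clusters carried Mal. In cluster 3, led by Hmcn1, Cxcl12 and Slco1a4, it was at 725 CPM in cKO and 661 CPM in control. In cluster 14, led by the arterial genes Gkn3, Bmx and Sema3g, it was at 1011 CPM in cKO and 904 CPM in control. In cluster 23, led by Slc38a5 and Vwf, it was at 1170.44 CPM in cKO and 967 CPM in control, the highest of the 3 in cKO, while in control its interval (887 to 1051 CPM) overlapped that of cluster 14 (848 to 964 CPM). Cluster 7, which had both endothelial and pericyte markers and stayed unnamed, held 691 CPM in cKO and 576 CPM in control.

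None of the 14 oligodendrocyte markers reached 50 CPM in endothelial cells, and their sum was 0.722% of the oligodendrocyte level in cKO and 1.13% in control. Without cells that held a UMI of 2 or more of those markers, Mal was at 857 CPM in cKO and 741 CPM in control endothelial cells. Between genotypes Mal had a log2 ratio of 0.25 (0.20 to 0.31) in endothelial cells and of 0.26 in oligodendrocytes.

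**Figure D3:**
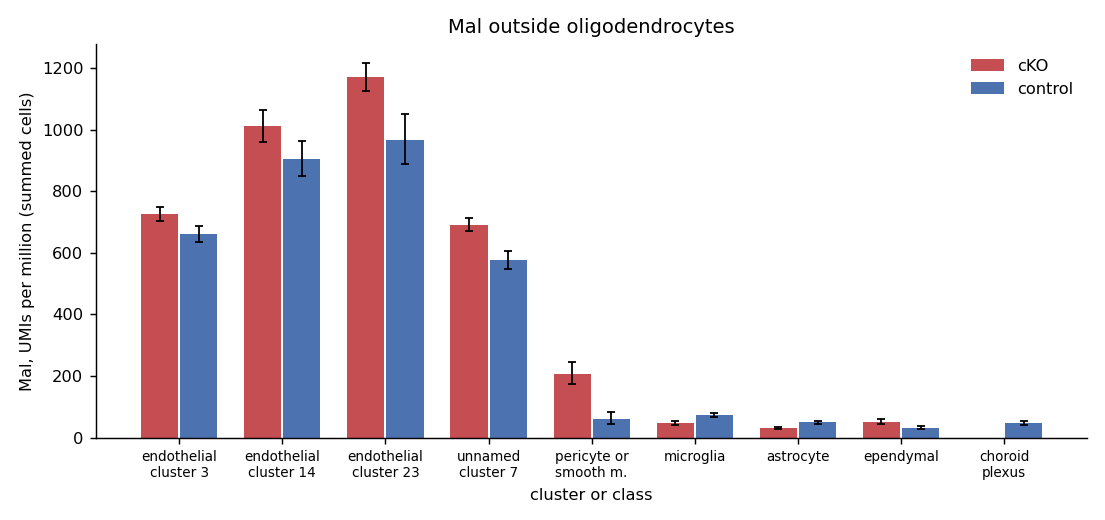
Mal level, in CPM of the summed cells, in endothelial clusters, the unnamed cluster 7 and other classes, cKO at left and control at right of each pair, with 95% Poisson intervals. The endothelial clusters and cluster 7 lie between 576 and 1170.44, pericytes or smooth muscle cells at 207 in cKO and 60.7 in control, and microglia, astrocytes, ependymal and choroid plexus cells at 72.8 or below.

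Cnp stood apart in ependymal cells, the ciliated lining of the ventricles. It was at 187 CPM in 112 cKO cells and at 220 CPM in 242 control cells, which is 4.40% (cKO) and 5.74% (control) of its oligodendrocyte level. It was 51.4% of the member UMIs in cKO ependymal cells and 67.2% in control, against 14.6% in oligodendrocytes of each library. Astrocytes held 123 CPM in cKO and 119 CPM in control, within counting error of pericytes or smooth muscle cells in cKO (112 CPM) and of border macrophages in control (123 CPM). Cnp was the highest member in astrocytes too, at 2.90% of its oligodendrocyte level in cKO and 3.10% in control. There it was 36.4% of member UMIs in cKO and 33.1% in control. Without cells that held a UMI of 2 or more oligodendrocyte markers, astrocytes held 122 CPM in cKO and 120 CPM in control. Pericytes or smooth muscle cells then held 66.0 CPM in cKO, and border macrophages 79.5 CPM in control. Cluster 4, led by Agt and Slc6a11 and left unnamed, held 307 CPM in cKO and 226 CPM in control, the highest outside oligodendrocytes among clusters of over 50 cells in both libraries. Of the named classes outside oligodendrocytes, ependymal cells held the most Cnp in both libraries.

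The Cnp gene overlaps Dnajc7, a co-chaperone gene on the opposite strand, over 8912 bases, and whether the counting used strand is not stated. Dnajc7 was at 289 CPM in cKO and 364 CPM in control ependymal cells, 110 CPM in cKO and 105 CPM in control astrocytes, and 179 CPM in cKO and 182 CPM in control microglia. Microglia held 55.5 CPM of Cnp in cKO and 71.4 CPM in control. How far the overlap adds to the Cnp counts was not tested. Without cells that held a UMI of 2 or more oligodendrocyte markers, which removed 60 of 112 cKO and 117 of 242 control cells, Cnp was 3.65% of the oligodendrocyte level in cKO and 5.91% in control. Ependymal cells were deep, with medians of 14883 UMIs in cKO and 17487.5 in control. A deep cell meets this rule more easily, so the rule also selects by depth. Mbp overlaps a pseudogene over 483 bases, Mog a small predicted gene over 248, Ermn the opposite-strand gene Galnt5 over 748, and Mobp the same-strand Gm38642 over 2447, which had 16 UMIs in all kept cKO cells and 31 in control.

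In 3 smaller classes, members past 1.5-fold stood beside an uneven spread over cells and over clusters. A gene that met the floor in 1 library alone counted as measured, so near the floor such a gene tends to differ. The shares over all genes follow the same rule. Several calls were lost, or could no longer be made, without the cells that held a UMI of 2 or more oligodendrocyte markers. In pericytes or smooth muscle cells 3 of 4 measured members were past 1.5-fold higher in cKO, against 6.87% of genes in that class higher and 3.67% lower. Cnp was at 112 CPM in cKO and 30.3 CPM in control, Mal at 207 CPM in cKO and 60.7 CPM in control, and Mbp at 203 CPM in cKO and 126 CPM in control. Of these, Cnp met the floor in cKO only. The summed level of the members lay on opposite sides of equality in the 2 clusters of this class. In cluster 20, led by the smooth muscle genes Acta2, Tagln and Myh11, the 9 members summed to 949 CPM in cKO and 191 CPM in control, with Mal at 326 CPM in cKO and 35.0 CPM in control. In cluster 16, led by Kcnj8, Vtn and Higd1b, they summed to 456 CPM in cKO and 629 CPM in control. Only Mbp reached the floor for a measured gene there, so no other member could be called. Mbp did not pass, at 202 CPM in cKO and 243 CPM in control (log2 -0.26, -0.81 to 0.28). In cKO 2 of the 174 cells held 34.6% of the member UMIs. Without marker-bearing cells (56 of 174 in cKO and 58 of 166 in control) Mal and Mbp still passed, with log2 ratios of 0.98 and 0.81. Cnp, at 0.83 with an interval of -0.19 to 1.92, was then below the floor for a measured gene and could not be called. The oligodendrocyte marker sum there was 11.3% of the oligodendrocyte level in cKO and 10.2% in control, and the 2 markers at 50 CPM or more were Tspan2 and Ppp1r14a, the gene of a smooth muscle phosphatase inhibitor. In cluster 20 that sum was 13.8% in cKO and 12.4% in control, and in cluster 16 it was 8.15% and 6.02%. Dropping marker-bearing cells can thus drop cells of this class for their own RNA, and cannot single out carry-over here. How it changed the mix of the 2 clusters was not tested.

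In border macrophages Mag, Cnp and Mal were past 1.5-fold lower in cKO, 3 of 5 measured members, against 5.17% of genes lower and 5.99% higher. Mag (31 UMIs), Cnp (73) and Mal (40) met the floor in control only, with 7, 25 and 10 UMIs in cKO. Being measured thus rested on the library where they were higher. In control 1 of 128 cells held 31.8% of the member UMIs. Without marker-bearing cells (4 of 70 in cKO and 15 of 128 in control) none of these calls remained, and of these genes only Cnp was still measured. Cnp was then at 68.2 CPM in cKO and 79.5 CPM in control (log2 -0.22, -1.0 to 0.53), and Mal at 27.3 CPM in cKO and 38.8 CPM in control (log2 -0.51). Mal, and Mag at 16.4 CPM in cKO and 42.7 CPM in control, were then below the floor for a measured gene and could not be called. Mbp then passed in the other direction, at 210.1 CPM in cKO and 122 CPM in control (log2 0.78, 0.28 to 1.29). In ependymal cells Mal, at 51.1 CPM in cKO and 31.1 CPM in control, was past 1.5-fold higher, 1 of 3 measured, against 1.69% of genes higher and 0.655% lower. Ependymal Mal met the floor in cKO only. There 1 of 112 cKO cells held 16.2% of the member UMIs. Without marker-bearing cells Mal was at 30.7 CPM in cKO and 27.1 CPM in control (log2 0.18, -0.62 to 0.94). These levels are below the floor for a measured gene, so Mal could not be called there at any ratio.

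In the other classes few members passed 1.5-fold. In microglia Mal passed, at 47.5 CPM in cKO and 72.8 CPM in control (log2 -0.62, -0.87 to -0.36), 1 of 4 measured members, against 1.61% of genes lower and 3.33% higher. Mal met the floor there in control only. It passed also without marker-bearing cells, at 37.9 CPM in cKO and 66.1 CPM in control. In astrocytes 0 of 2 measured members passed, against 0.643% of genes higher and 0.98% lower, and in endothelial cells 0 of 2, against 1.38% higher and 1.18% lower. In neuroblasts Cnp passed, at 38.7 CPM in cKO and 77.6 CPM in control, 1 of 3 measured, against 3.8% lower and 2.23% higher. Cnp met the floor there in control only. Without marker-bearing neuroblasts Mbp passed as well, at 84.8 CPM in cKO and 136 CPM in control. In T cells 0 of 2 passed, against 6.72% higher and 4.61% lower.

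Below the floor of 50 CPM, Mog and Ermn were lower in cKO microglia by counting error, with 18 and 26 UMIs in cKO against 66 and 85 in control. Their log2 ratios were -1.40 (-2.24 to -0.63) and -1.23 (-1.93 to -0.58). Both had positive ratios in oligodendrocytes, 0.20 and 0.18. The median log2 ratio of the 9 was -0.51 in microglia and -0.60 in astrocytes, beside 0.02 and 0.04 over all measured genes of these classes. These medians are not of like genes, since 4 members in microglia and 2 in astrocytes were measured. The 2 in astrocytes, Mbp and Cnp, had log2 ratios of 0.31 and 0.05. Cell depth also differed, since kept microglia were deeper in cKO, and its part in these ratios was not tested.

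The make-up of the member UMIs differed between classes. Mbp and Mobp, the genes of the transported mRNAs, were 26.9% of member UMIs in cKO and 28.4% in control oligodendrocytes. In microglia they were 49.6% in cKO (47.1% to 52.2%) and 43.0% in control. In T cells they were 65.7% in cKO and 49.3% in control, and in border macrophages 62.8% in cKO and 41.4% in control. The pair was also a larger share in neuroblasts, at 46.0% in cKO and 42.2% in control, in pericytes or smooth muscle cells, at 36.4% in cKO and 48.9% in control, and in astrocytes, at 40.5% in cKO and 33.7% in control. Control choroid plexus cells held 38.3%. So the share was above that of oligodendrocytes in every class described but endothelial and ependymal cells. Endothelial cells held 9.19% in cKO and 10.2% in control, and ependymal cells 20.4% in cKO and 16.8% in control, the classes in which Mal or Cnp made up most of the sum.

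**Figure D4:**
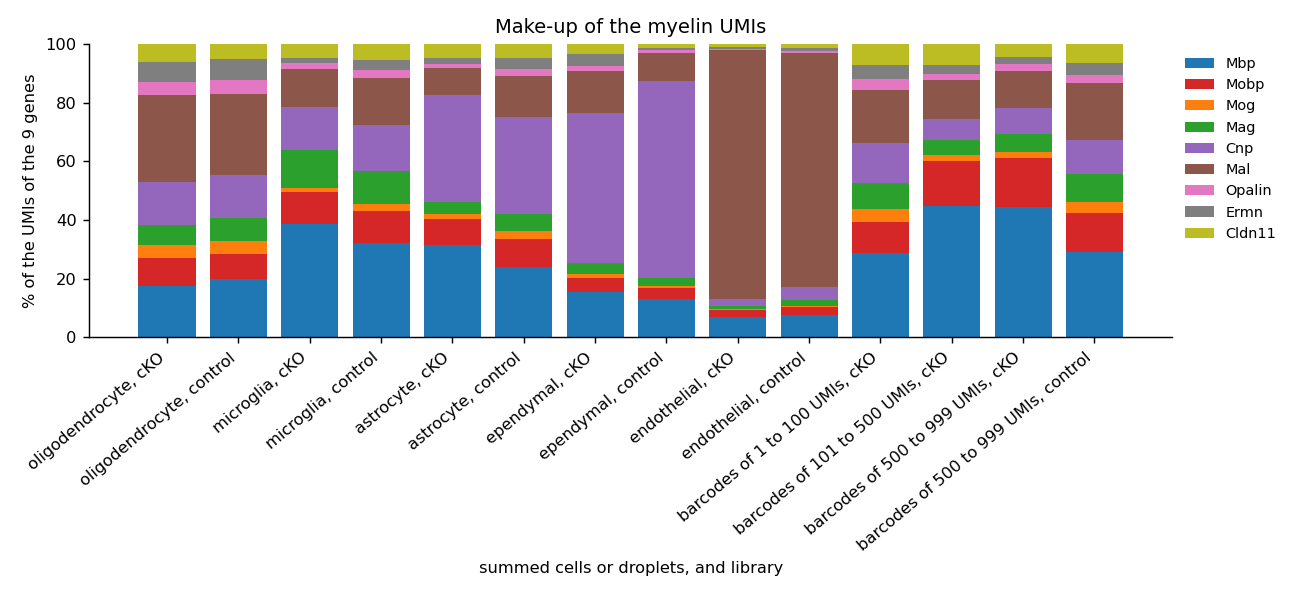
Share of each myelin gene in the UMIs of the 9 genes (stacked to 100%), by class and library, and in low barcodes. Mbp and Mobp are at the base of each bar, at 26.9% in cKO and 28.4% in control oligodendrocytes and at 60.1% in cKO barcodes of over 100 and up to 500 UMIs. Mal fills most of the endothelial bars and Cnp most of the ependymal bars.

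Low barcodes of the cKO library held the 9 genes too. Barcodes of 1 to 100 UMIs, 1448877 in all, held 13302 member UMIs, a summed level of 3395 CPM or 11.7% of that in cKO oligodendrocytes. Mbp stood at 973 CPM there, 19.1% of its oligodendrocyte level, against 652 CPM over all kept cKO cells. Mobp stood at 366 CPM, against 337 CPM in kept cells. Mal stood at 615 CPM, 7.15% of its oligodendrocyte level, against 1302 CPM in kept cells. Relative to kept cells Mbp was thus raised in the low barcodes and Mal lowered, where the median over 3732 genes was a ratio of 0.793.

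The other members in these barcodes ran from 122 CPM for Opalin to 466 CPM for Cnp. As a share of the oligodendrocyte level they lay between 7.66% for Ermn and 14.9% for Mag, with Mog at 11% and Cldn11 at 14.2%. Mbp and Mobp made up 39.4% of the member UMIs. These levels are above those of microglia, in which the 9 were at 1.29% of the oligodendrocyte level.

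Barcodes of over 100 and up to 500 UMIs differed from both. There were 55073 of them, with 57590 member UMIs, and Mbp reached 2795 CPM, 55.0% of its level in cKO oligodendrocytes. Mobp reached 959 CPM, or 34.8%, and Cldn11 449 CPM, or 25.7%. Mag stood at 15.8%, Opalin at 11%, Cnp at 10.4%, Mog at 10.0%, Mal at 9.63% and Ermn at 8.82%. Mbp, Mobp and Cldn11 thus stood above the rest, Mbp the most. Over kept cells the ratio was 4.28 for Mbp, rank 3 of 3732 genes, 2.85 for Mobp, rank 26, and 2.15 for Cldn11, rank 47, and the median gene had 0.727. The other 6 members had ratios from 0.636 for Mal to 1.32 for Mag.

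Some of these barcodes were rich in the pair. Of the 55073, 1803 held 5 or more member UMIs, and in them Mbp and Mobp made up 85.5% of the member UMIs. In the 230 with 10 or more they made up 92.8%. The barcodes of over 100 and up to 500 UMIs as a whole had 17.3% mitochondrial UMIs, and those with 5 or more member UMIs 17.8%. In barcodes of 500 or more and under 1000 UMIs, the range present in both libraries, the pair made up 61.1% of member UMIs in 2518 cKO barcodes and 42.2% in 945 control barcodes. The control matrix had been filtered by then, so these sets were not chosen alike.

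**Figure D5:**
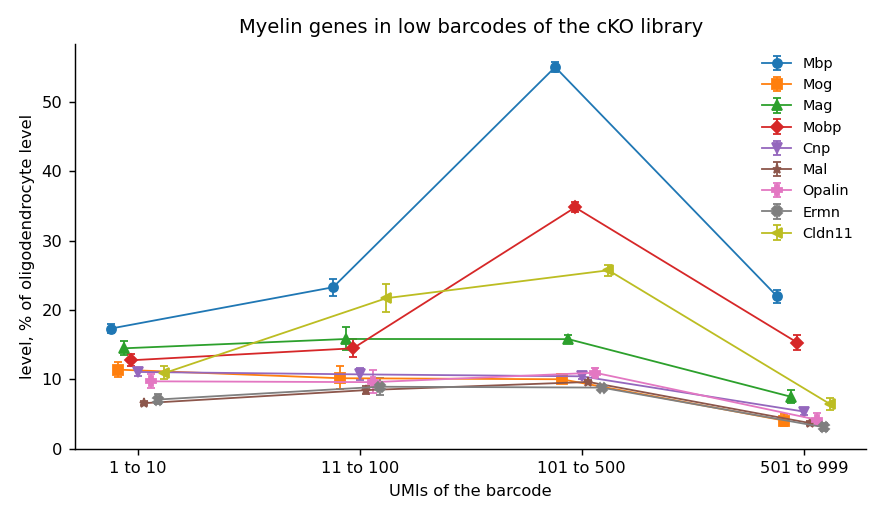
Level of each myelin gene in barcodes of the cKO library, by the number of UMIs of the barcode, as a percentage of its level in cKO oligodendrocytes. Error bars are 95% Poisson intervals of the low barcodes. Mbp, Mobp and Cldn11 peak above 100 and up to 500 UMIs (55.0%, 34.8% and 25.7%), where the other members lie between 8.82% and 15.8%.

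Across cell classes the genes most like the mean of the 9 were sought among 2994 genes of at least 50 CPM in oligodendrocytes of both libraries. Likeness was the Pearson r of log2(CPM + 1) over 9 classes in cKO and 10 in control, classes of a library sharing its depth and its free RNA. Myrf had r = 0.99 in cKO and 0.98 in control, Ugt8a 0.98 and 0.98, Fa2h 0.99 and 0.97, and Qdpr, a pterin reductase, 0.98 and 0.98. Slc24a2, Spock3, Enpp6 and Tmem88b followed, with values of 0.95 or above in each library. Of these, Myrf, Ugt8a and Fa2h belong to the marker list that named the oligodendrocytes. Oligodendrocytes were the only class with high levels of the members. Any gene high in them and low elsewhere therefore gets a high r, and the ranking shows little beyond that.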

How the data were processed

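The authors deposited unnormalized UMI counts for every gene and barcode. Cell Ranger 7.1.0 and mm10 are named in the submitters' processing notes, and the annotation release and intron setting were not stated. The control matrix was deposited filtered (10942 barcodes) and the cKO matrix unfiltered (2377349 barcodes). Members, gene lists and comparisons were chosen with earlier results of these data known. Cells with at least 1000 UMIs, 500 genes and at most 10% mitochondrial UMIs were kept, without Scrublet doublets (188 of 5398 cKO and 420 of 8068 control cells, expected share 6%). Clustering used scanpy 1.11.5 and leidenalg 0.10.2 on 2000 variable genes that excluded the 9 members, mitochondrial genes and sex-linked genes, with 30 principal components, 15 neighbours and resolution 1.0. No batch correction was used. Clusters were named from 21 marker lists that hold no member, by at least 3 markers in 10% of cells at 2-fold; where names were withheld, clusters keep their numbers. UMI sums per class and library gave CPM with exact Poisson intervals; log2 ratios have exact conditional Clopper-Pearson intervals. Thinned shares are the exact expectation over all draws of 1000 UMIs per cell, and every kept cell reached that depth. The detection of all 9 genes and the correlations used 1 seeded draw. Of the gene lists, 1 symbol, Septin4, was not matched. Genes named beside the members are at most 5 of each list by absolute log2 ratio and the 10 most like the members; some genes that this rule names are not reported here. Coordinates come from GENCODE vM21. The ratio, thinning and mixing steps were tested on simulated data with 200 changed genes. Alternatives changed the UMI floor, mitochondrial limit, doublets, resolution, variable genes, scaling, depth and marker-bearing cells; 3 were added after seeing the data.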

Additional observations from a re-analysis of the deposited data

Results flagged for a closer look

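Several members had a log2 ratio of cKO over control on one side of equality in oligodendrocytes and on the other in another class, with both counting intervals excluding equality. With 1 library per genotype, whether the ratios differ between classes was not tested. The same rule was not applied to other genes, so how often they meet it is not known. Mog had a ratio of 0.20 in oligodendrocytes, against -1.40 in microglia, -0.66 in astrocytes and -3.28 in border macrophages, where 1 cKO and 15 control UMIs were counted. Ermn had 0.18 in oligodendrocytes, against -1.23 in microglia, -0.84 in astrocytes and -2.38 in border macrophages. Mal had 0.26 in oligodendrocytes, against -0.62 in microglia, -0.68 in astrocytes, -1.34 in T cells and -1.38 in border macrophages. Cnp had 0.15 in oligodendrocytes, against -0.36 in microglia, -0.75 in endothelial cells, -0.23 in ependymal cells, -1.0 in neuroblasts and -0.92 in border macrophages. Cldn11 had 0.35 in oligodendrocytes and -0.51 in microglia. Mbp went the other way, with -0.04 in oligodendrocytes, against 0.31 in astrocytes, 0.39 in ependymal cells and 0.69 in pericytes or smooth muscle cells. Many of these ratios were of genes below the floor for a measured gene. This holds of Mog and Ermn in each class but oligodendrocytes, and of Mal in astrocytes and T cells (12 cKO and 27 control UMIs). It holds also of Cnp in endothelial cells and of Cldn11 in microglia. Without cells that held a UMI of 2 or more oligodendrocyte markers, the ratios in border macrophages were -1.83 for Mog, -1.32 for Ermn, -0.51 for Mal and -0.22 for Cnp, each with an interval that held equality. So did those of Mog in astrocytes, at -0.57, and of Mbp in ependymal cells, at 0.35. The other ratios given here kept an interval on the same side of equality. In control border macrophages 1 cell held 31.8% of the member UMIs, and in cKO pericytes or smooth muscle cells 2 cells held 34.6%.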

How the results depend on the processing

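No paired analysis was possible because each genotype has 1 library. In oligodendrocytes the median log2 ratio of the 9 members lay between 0.12 and 0.22 over 11 alternatives, and 0 members passed 1.5-fold under each of them. The pair Mbp and Mobp made up 48.3% to 51.5% of member UMIs in cKO microglia and 42.5% to 44.4% in control over 8 alternatives, and the thinned share of microglia with a member UMI stayed within its interval under 7. At 2-fold, 0 other listed oligodendrocyte genes passed, against 2 at 1.5-fold. The rest are percentages of the oligodendrocyte level. The 9 members in microglia came to 1.08% in cKO and 1.56% in control with at most 5% mitochondrial UMIs, 1.38% and 1.84% (cKO and control) with at most 20%, 1.36% and 1.83% with doublets kept, 1.16% and 1.61% without cells that held 2 or more oligodendrocyte markers, and 1.43% and 1.98% with the low-UMI clusters 6 and 12 added. In control alone they came to 1.86% with at least 2000 UMIs and to 1.84% when thinned. Mal in endothelial cells came to 10.8% in cKO and 11.2% in control with doublets kept, 9.18% and 9.92% when thinned, and 9.33% and 9.53% with cluster 7 added. It was 9.96% in cKO without marker-bearing cells, and 9.89% and 10.8% in control at the 5% and 20% mitochondrial limits. Cnp in ependymal cells came to 4.02% in cKO and 6.18% in control when thinned, 3.65% in cKO without marker-bearing cells, and 6.68% and 6.12% in control with doublets kept and at the 20% limit. In cKO barcodes Mbp stood at 17.3%, 23.3% and 55.0% for 1 to 10, 11 to 100 and over 100 to 500 UMIs, and Mal at 6.57%, 8.45% and 9.63%. No cause of these shifts was tested. The single-member ratios in oligodendrocytes moved by less than their counting error in 78 of 99 recomputations, and Opalin, with an interval that held equality, ran from -0.18 to 0.06. Depth limits the classes of few cells, where Mog, Opalin and Ermn had under 30 UMIs.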

Other observations

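Cluster 31 held 18 control and 3 cKO cells, had both astrocyte and oligodendrocyte markers and stayed unnamed. In its control cells the 9 members summed to 6893 CPM and the 14 oligodendrocyte markers to 30.1% of the oligodendrocyte level, with Cnp at 23.7% and Mal at 20.3% of theirs. Its leading genes included Sec14l5, Plxnb3 and St18.

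Plxnb2 itself was at 264 CPM in cKO and 254 CPM in control ependymal cells, above its level in oligodendrocytes of either library.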
